A study of Mus musculus with 24 samples.

Results

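The NR4A receptors are the 3 nuclear receptor genes Nr4a1, Nr4a2 and Nr4a3, taken by gene symbol from a table of 19426 genes measured in mouse kidney. All 3 were in the table once and all 3 passed the filter on low values, which asked for an average of 0.5 FPKM or more across the series. The study sequenced whole-kidney RNA of C57BL6 mice given YKL, hPTH(1-34) or vehicle, with 8 libraries in each of the 3 groups and 24 in all. YKL, written YKL-05-099 in full, is a small-molecule inhibitor of the salt-inducible kinases (SIKs), which the paper describes as relatively promiscuous among kinases, and hPTH(1-34), called PTH here, is the active fragment of human parathyroid hormone. No transgene or deletion is named for any group. By the paper's account the kidneys were taken later after YKL than after PTH and the agents were given by different routes, where the series text gives 1 route for all. Agent, time after dosing and route cannot be told apart in any comparison between the agents.

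NR4A proteins are orphan members of the nuclear receptor superfamily. Unlike most of that superfamily they are not known to need a hormone ligand, and how much of them a cell makes is a main control on what they do. Nr4a1 encodes NUR77, Nr4a2 encodes NURR1 and Nr4a3 encodes NOR1. All are known as immediate early genes, copied within minutes of a stimulus without new protein synthesis, and cAMP is a classical stimulus. PTH binds its receptor on kidney tubule cells and raises cAMP, protein kinase A then phosphorylates CREB and inhibits SIKs, and SIK inhibition lets the CRTC coactivators enter the nucleus and join CREB on its binding site, the cAMP response element (CRE). NR4A proteins bind a DNA site of their own, called the NBRE.

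Sequences at the starts of the 3 genes are shown because CREB binds DNA and all 3 members rose with both agents, though not by the same amount. They come from RefSeq on build GRCm38.p6, matched by symbol for 3 of 3 members, and are written 5′ to 3′ on the strand of the gene with each CRE core, TGACG on either strand (CGTCA when read from the opposite one), in capitals.
Nr4a1: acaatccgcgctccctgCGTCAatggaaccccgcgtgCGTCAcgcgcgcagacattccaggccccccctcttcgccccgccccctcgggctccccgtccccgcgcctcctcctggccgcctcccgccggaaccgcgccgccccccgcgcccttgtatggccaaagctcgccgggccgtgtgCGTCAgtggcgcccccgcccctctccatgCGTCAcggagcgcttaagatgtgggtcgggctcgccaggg
Nr4a2: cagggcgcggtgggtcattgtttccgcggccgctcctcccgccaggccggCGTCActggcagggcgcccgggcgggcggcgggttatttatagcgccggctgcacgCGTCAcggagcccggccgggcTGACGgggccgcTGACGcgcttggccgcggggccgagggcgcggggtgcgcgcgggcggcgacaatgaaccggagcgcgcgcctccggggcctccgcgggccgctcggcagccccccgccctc
Nr4a3: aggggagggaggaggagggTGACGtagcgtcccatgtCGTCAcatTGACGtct
The Nr4a1 stretch is chr15:101266596-101266845 on the plus strand, the 250 bases before the annotated start, and it lies in an intron of a longer GENCODE transcript of the same gene. The Nr4a2 stretch is chr2:57124004-57124253 on the minus strand and is likewise the 250 bases before the start. The Nr4a3 stretch is chr4:48045055-48045107 on the plus strand, and lies around another start of the gene, annotated 227 bases upstream of the one used. Its 53 bases hold 23 before that upstream start and 30 from it on, so that 1 of the 3 marked cores lies across that start and 2 lie inside the annotated gene. Over windows of 300 bases, 250 before the start and 50 after it, each member held 4 CRE cores, and 0.255% of 27025 genes had at least 4 (23.0% had at least 1). In Nr4a1 they began 233, 213, 69 and 40 bases before the start. In Nr4a2 they began 200, 144, 123 and 111 bases before the start, and in Nr4a3 231, 213, 205 and 147 bases before it. None of the 3 windows held the full CRE, TGACGTCA, which occurs in 2.03% of genes, or the NBRE letters AAAGGTCA, which occur in 1.70%. The windows were rich in G and C (72.3%, 81.7% and 64.7% for Nr4a1, Nr4a2 and Nr4a3, against a median of 52.7% over all windows). The 0.255% is a share of all genes, not of genes matched for G and C, so it does not show how rare 4 cores are in such windows. A match of 5 letters is a description of the sequence, and binding was not measured here.

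Expression is given as FPKM, the number of fragments per kilobase of transcript scaled to the size of the library, and fold changes are on the scale of log2(FPKM + 0.1). The steps between low values gave an estimated depth of 5840000 to 7150000 fragments (median 6675000). Pairwise correlations of libraries ran from 0.939 to 0.977. Kidney markers were abundant in all groups. Their sum over 6 genes was 3060 to 3449 FPKM with YKL, 2527 to 3280 FPKM with PTH and 2424 to 2999 FPKM with vehicle. Most of this sum came from Slc34a1 (means of 1585 FPKM with YKL and 1176 FPKM with vehicle) and Umod (1122 and 1042 FPKM). Of the 6, only the proximal tubule phosphate transporter gene Slc34a1 was called with YKL. It was higher by 0.42 on the log2 scale over vehicle (limma adjusted p = 3.3e-03) and by 0.34 over PTH (limma adjusted p = 0.027). The shares of all genes tested called upward were 6.26% and 2.84%. Lrp2, the other proximal tubule marker, was not called, at 0.12 over vehicle (limma adjusted p = 0.49) and -0.10 against PTH (limma adjusted p = 0.68). The part of these markers in the NR4A results was not tested. Although the label says male, the inactive-X transcript Xist was at 76.3 to 114 FPKM and the Y-linked Ddx3y at no more than 0.1 FPKM in the 24 libraries. The series text gives 6 mice per treatment against 8 libraries, so it is not known if all libraries come from separate animals, and each p-value covers library-to-library spread that may be technical.

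Nr4a1 was the most abundant member in every library. It had a lowest, median and highest value of 12.9, 50.5 and 63.0 FPKM in YKL kidneys, 27.2, 57.2 and 133 FPKM in PTH kidneys, and 0.23, 1.14 and 1.48 FPKM in vehicle kidneys. The lowest YKL library was 8.70 times the highest vehicle library, and the lowest PTH library was 18.4 times that library. The means were 45.7 ± 16.2 FPKM with YKL, 65.6 ± 35.2 FPKM with PTH and 1.00 ± 0.43 FPKM with vehicle (SD, n = 8 each). The log2 fold change over vehicle was 5.39 with YKL (SE 0.34, limma adjusted p = 1.2e-10) and 5.87 with PTH (SE 0.34, limma adjusted p = 3.9e-12). Both treated groups lay wholly above vehicle, and 7 of 8 YKL libraries fell within the range of the PTH libraries. The exception was YKL replicate 1, at 12.9 FPKM where the other 7 ran from 34.1 to 63.0 FPKM.

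Nr4a2 was much lower but moved in the same way. Its lowest, median and highest values were 2.10, 7.75 and 13.8 FPKM in YKL kidneys, 5.05, 6.44 and 18.7 FPKM in PTH kidneys, and 0.16, 0.36 and 0.88 FPKM in vehicle kidneys. The treated groups again did not overlap with vehicle, while 6 of 8 YKL libraries lay within the PTH range and the other 2 below it. The means were 7.64 ± 3.63 FPKM with YKL, 8.79 ± 5.0 FPKM with PTH and 0.41 ± 0.25 FPKM with vehicle. Log2 fold changes over vehicle were 3.9 with YKL (SE 0.34, limma adjusted p = 4.0e-08) and 4.12 with PTH (SE 0.34, limma adjusted p = 2.0e-09).

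Nr4a3 set the agents apart. It had 1.27, 1.60 and 4.38 FPKM as lowest, median and highest values in YKL kidneys, against 6.78, 10.7 and 21.6 FPKM in PTH kidneys. In vehicle kidneys it was listed at 0 in 4 of 8 libraries, and the other 4 held 0.08, 0.08, 0.16 and 0.52 FPKM. All 3 groups were therefore separate, with every YKL library below every PTH library and above every vehicle library. How many of all genes tested separate the groups in this way is not given here, for Nr4a3 or for the other members. The 1.94 ± 1.03 FPKM with YKL were 0.168 of the 11.5 ± 4.80 FPKM with PTH (means, SD, n = 8 each). The log2 fold change over vehicle was 3.52 with YKL (SE 0.33, limma adjusted p = 1.2e-07) and 6.05 with PTH (SE 0.33, limma adjusted p = 1.1e-12).

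**Figure D1:**
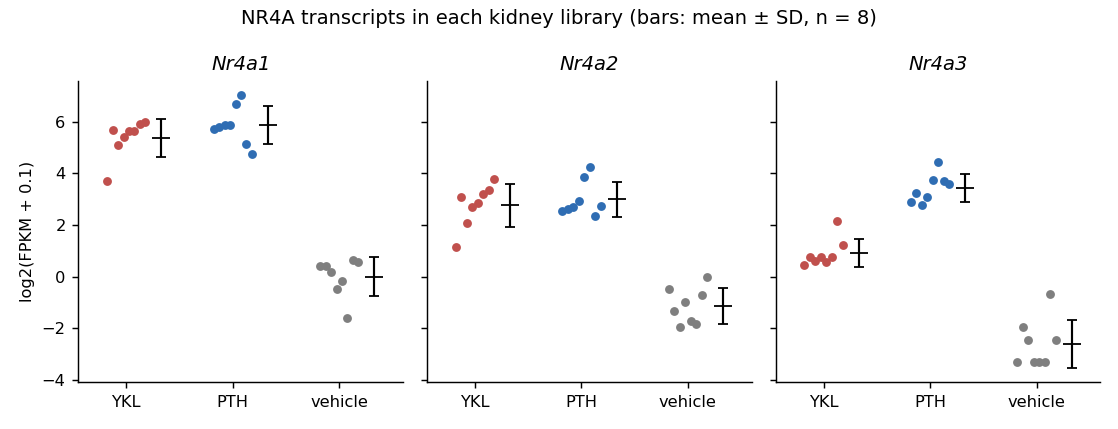
Level of each NR4A transcript in each library, as log2(FPKM + 0.1) on the vertical axis, for YKL, PTH and vehicle kidneys; a point is 1 library and the bar beside the points is the mean with the SD (n = 8). Nr4a1 and Nr4a2 overlap between YKL and PTH, whereas Nr4a3 has a median of 1.60 FPKM with YKL and 10.7 FPKM with PTH.

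The fold changes over vehicle were among the greatest of those tested. Of 13991 genes tested with a pseudocount of 0.1 FPKM, Nr4a1, Nr4a2 and Nr4a3 ranked 1, 3 and 5 from the highest with YKL, and 2, 4 and 1 with PTH. All 3 were called higher, at a limma adjusted p below 0.05, in each of these comparisons. The vehicle means of Nr4a2 (0.41 FPKM) and Nr4a3 (0.105 FPKM) were below the 0.5 FPKM of the filter. Both genes passed it only through the treated groups, so the filter itself favours a high rank for them. As background, the share of tested genes called with YKL was 17.7% (6.26% upward and 11.5% downward), and with PTH it was 17.1% (6.00% upward and 11.1% downward). Upward calls were 35.3% of the calls with YKL and 35.0% with PTH, and 50.3% and 49.9% with median-ratio scaling, under which the member fold changes moved by less than 0.1. Both comparisons use the same 8 vehicle libraries. For Nr4a3 the fold over vehicle rests on values near 0 and moves with the pseudocount. A pseudocount of 0.01 FPKM gave 5.47 with YKL and 8.05 with PTH, and one of 1 FPKM gave 1.37 with YKL and 3.43 with PTH. At the median depth 1 fragment is worth 0.06 FPKM over the 2477 bases of the Nr4a1 transcript and 0.03 FPKM over the 5720 bases of the Nr4a3 transcript, though the transcript lengths behind the table were not known.

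The fold changes of the direct comparison of the agents do not use the vehicle libraries, which enter the estimate of the spread. The comparison asked whether SIK inhibition and PTH brought each member to the same level, and the share of tested genes called was 6.42% (2.84% upward and 3.58% downward with YKL). Of the members, only Nr4a3 was among them, with a log2 fold change of -2.53 (95% interval -3.20 to -1.85, limma adjusted p = 1.9e-05), the fourth lowest of 13991. The log2 difference of Nr4a1 was -0.48 (95% interval -1.18 to 0.22, limma adjusted p = 0.47), and that of Nr4a2 was -0.22 (95% interval -0.92 to 0.48, limma adjusted p = 0.80). These intervals still allow a level with YKL that is lower on the log2 scale by up to 1.18 for Nr4a1 and 0.92 for Nr4a2. Leukocyte markers moved in the same comparison, with 2 of 5 tested lower and a sum over 8 genes of 13.6 to 29.1 FPKM with YKL (median 26.6) against 24.8 to 68.7 FPKM with PTH (median 36.0). That sum was 24.6 to 40.8 FPKM with vehicle (median 36.2). Among the most specific of these markers, Cd3e and Ms4a1 were too low to be tested. In whole tissue, fewer cells of a type and less RNA per cell cannot be told apart, and the part of leukocytes in the Nr4a3 difference was not tested.

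**Figure D2:**
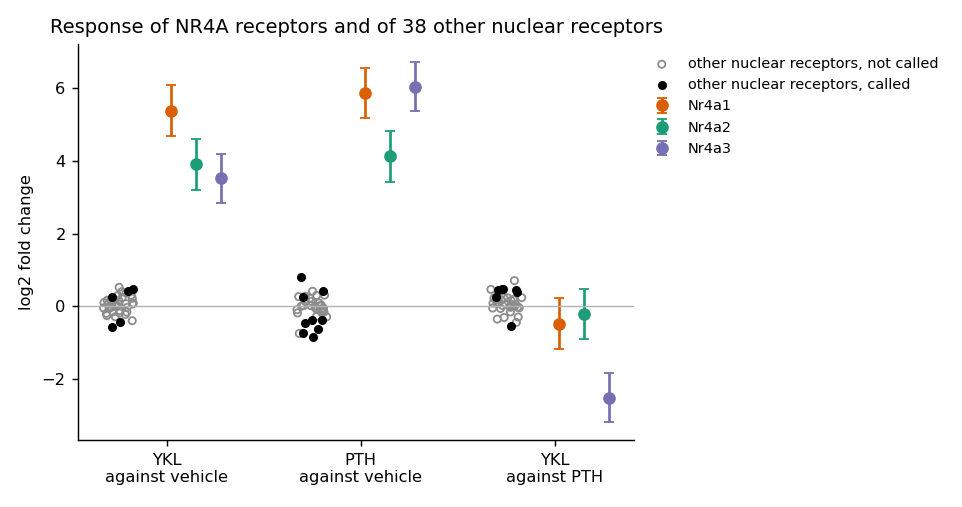
Log2 fold change of Nr4a1, Nr4a2 and Nr4a3 with 95% intervals (coloured points), beside 38 other nuclear receptors (open points not called, filled points called at a limma adjusted p below 0.05), for YKL against vehicle, PTH against vehicle and YKL against PTH. The other receptors lie between -0.85 and 0.81 in all comparisons, and among the members only Nr4a3 leaves 0 in the direct comparison of the agents, at -2.53.

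Whether one member responded more than another was tested on their ratio within each library, in which the scaling of a library cancels except through the pseudocount of 0.1 FPKM. The ratio of Nr4a3 to Nr4a1 had a mean log2 of -4.47 ± 0.64 in YKL libraries and -2.43 ± 0.72 in PTH libraries (SD, n = 8 each). The difference of -2.05 (SE 0.34) had an exact two-sided permutation p = 1.6e-04, the smallest that 12870 arrangements can give, and an adjusted p of 4.7e-04 over 9 such tests. All 8 YKL libraries had a lower ratio than all PTH libraries. Nr4a3 against Nr4a2 gave the same picture, at -1.86 ± 0.67 with YKL and 0.45 ± 0.48 with PTH, a difference of -2.31 (SE 0.29, exact permutation adjusted p = 4.7e-04) with 8 of 8 libraries below. The ratio of Nr4a2 to Nr4a1 was -2.62 ± 0.25 with YKL and -2.87 ± 0.38 with PTH, and the difference of 0.26 (SE 0.16) did not pass (exact permutation p = 0.13, adjusted p = 0.17). Without PTH replicate 8, whose ratio of -2.04 was the highest of its group, that difference was 0.38 (exact permutation adjusted p = 8.8e-03).

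Against vehicle, Nr4a2 responded less than Nr4a1 to both agents. The log2 ratio of Nr4a2 to Nr4a1 was lower by 1.48 with YKL (SE 0.25, 8 of 8 libraries below all vehicle libraries) and lower by 1.74 with PTH (SE 0.27, 7 of 8 below), each at an exact permutation adjusted p = 4.7e-04. For Nr4a3 such ratios inherit the vehicle values near 0. The ratio of Nr4a3 to Nr4a1 differed from vehicle by -1.86 with YKL (exact permutation adjusted p = 4.7e-04) and by 0.18 with PTH (exact permutation p = 0.62). The first was lost with a pseudocount of 0.01 FPKM, at -0.08 (exact permutation adjusted p = 0.91), and the second turned to -1.49 with one of 1 FPKM (exact permutation adjusted p = 7.0e-04). The ratio of Nr4a3 to Nr4a2 differed from vehicle by 1.93 with PTH (exact permutation adjusted p = 4.7e-04, 7 of 8 libraries above). Its size also moved with the pseudocount, to 3.59 with 0.01 FPKM and 0.75 with 1 FPKM, while its direction and call were kept. With YKL the same ratio differed from vehicle by -0.38 (exact permutation p = 0.39), and a pseudocount of 0.01 FPKM turned this to 1.22.

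**Figure D3:**
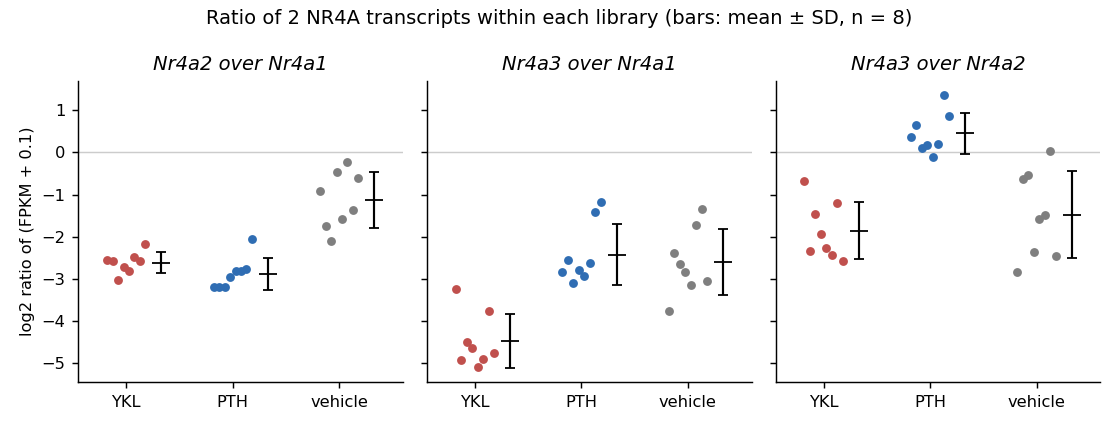
Log2 ratio of 2 NR4A transcripts within each library, from FPKM + 0.1, for YKL, PTH and vehicle kidneys; a point is 1 library and bars are the mean with the SD (n = 8). Both ratios that involve Nr4a3 are lower in all YKL libraries than in all PTH libraries, by 2.05 against Nr4a1 and by 2.31 against Nr4a2.

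The members were also added up, since FPKM is per length. The sum was 55.3 ± 20.2 FPKM with YKL, 85.9 ± 43.5 FPKM with PTH and 1.51 ± 0.72 FPKM with vehicle (SD, n = 8 each). Nr4a1 made up 82.7% ± 2.6 of it with YKL, 75.0% ± 7.9 with PTH and 66.9% ± 9.9 with vehicle. Nr4a3 made up 3.86% ± 1.94 with YKL (2.34% to 7.82%) and 14.8% ± 6.6 with PTH (9.43% to 26.1%), with no overlap. The order of the members changed with it. Nr4a2 exceeded Nr4a3 in 8 of 8 YKL libraries, in 1 of 8 PTH libraries and in 7 of 8 vehicle libraries.

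Within the YKL and the PTH group, Nr4a1 and Nr4a2 varied together from library to library. Over the 8 YKL libraries their log2 levels had a Pearson r of 0.957 (exact permutation p = 7.4e-05, adjusted p = 6.7e-04 over 9 relations) and a Spearman rho of 0.976 (exact permutation p = 4.0e-04, adjusted p = 3.6e-03). The r was 0.913 without the 2 libraries farthest from the Nr4a1 median (replicates 1 and 3), and 0.953 to 0.972 with any 1 library left out. Over the 8 PTH libraries r was 0.859 (exact permutation p = 7.6e-03, adjusted p = 0.034), rho was 0.714 (exact permutation p = 0.058, adjusted p = 0.10), and r was 0.931 without replicates 6 and 8. That call was lost without any 1 of 7 of the 8 PTH libraries, with r from 0.741 to 0.875 and an exact permutation adjusted p of 0.054 to 0.22. It was kept without PTH replicate 8, at an r of 0.966 (exact permutation adjusted p = 1.8e-03). Over the vehicle libraries r was 0.577 (exact permutation p = 0.13, adjusted p = 0.19), or 0.772 without the 2 farthest, and rho 0.659 (exact permutation p = 0.084, adjusted p = 0.13), at Nr4a2 levels of 0.16 to 0.88 FPKM. Both genes of a library share the scaling of that library, which can add to such an r. With median-ratio scaling the r was 0.959 in YKL libraries, 0.865 in PTH libraries and 0.564 in vehicle libraries. Whether these relations differ between groups was not tested.

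By Pearson's r, none of the 6 relations of Nr4a3 with the other members passed (exact permutation adjusted p = 0.15 to 0.59), though that with Nr4a2 in PTH libraries passed without PTH replicate 7, at 0.871 (exact permutation adjusted p = 0.039). With Nr4a1 its r was 0.541 in YKL libraries (exact permutation p = 0.13), 0.405 in PTH libraries (exact permutation p = 0.33) and 0.594 in vehicle libraries (exact permutation p = 0.12), and without the 2 farthest libraries it was 0.694 with YKL, 0.109 with PTH and 0.645 with vehicle. The rank correlation with YKL was higher, at a rho of 0.854 with Nr4a1 and the same with Nr4a2 (exact permutation p = 0.011, adjusted p = 0.032 for each). The other 4 rank correlations of Nr4a3 ran from 0.153 to 0.764 and did not pass (exact permutation adjusted p = 0.083 to 0.72). With Nr4a2 the r was 0.592, 0.710 and 0.236 in YKL, PTH and vehicle libraries (exact permutation p = 0.15, 0.051 and 0.59). The 0.710 with PTH rested on replicates 5 and 6, without which it was -0.38, while the YKL and vehicle values without the 2 farthest libraries were 0.555 and 0.340. Replicates 7 and 8 of PTH went against the rest of their group, as they had the lowest Nr4a1 levels, 35.1 and 27.2 FPKM, with Nr4a3 at 13.2 and 11.9 FPKM, above the group median.

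**Figure D4:**
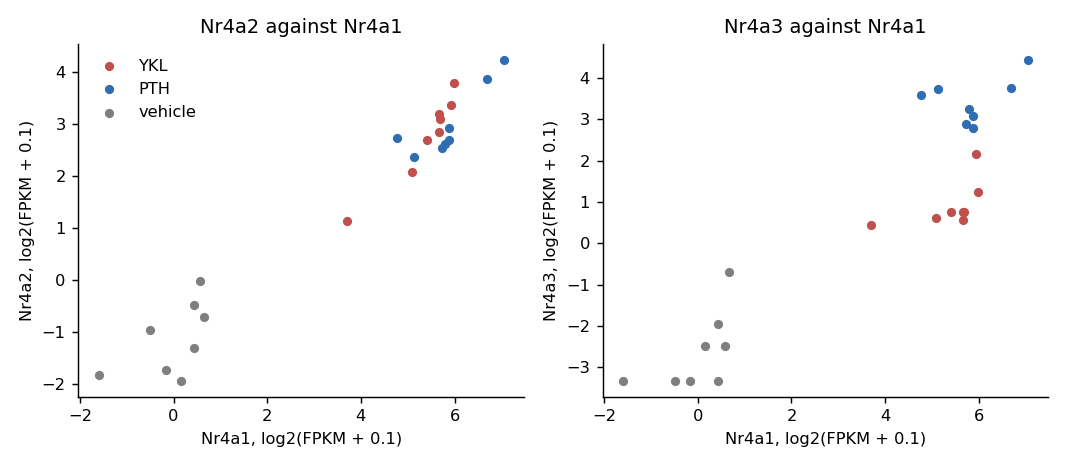
Nr4a2 (left) and Nr4a3 (right) against Nr4a1 in each library, all as log2(FPKM + 0.1); a point is 1 of 8 libraries of YKL, PTH or vehicle kidneys. Nr4a2 runs along with Nr4a1 in the YKL libraries (r = 0.957), whereas Nr4a3 stands at separate heights for YKL and PTH at similar Nr4a1.

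Genes whose library-to-library pattern was most like each member were ranked by the Pearson r of their deviations from the group means, over all 24 libraries and 12590 genes, as a description. For Nr4a1 these were Hbegf (0.869), a growth factor of the EGF family, Btg2 (0.853), an antiproliferative early gene, Junb (0.846), an AP-1 subunit, Ifrd1 (0.844) and the chemokine gene Cxcl1 (0.821). For Nr4a2 they were Btg2 (0.850), Ier5l (0.841), Junb (0.810), Nr4a1 (0.802) and the arrestin-domain gene Arrdc3 (0.799). Nr4a2 stood in 11th place for Nr4a1. For Nr4a3 the values were lower, with the MAP kinase phosphatase gene Dusp8 (0.675), the growth factor gene Fgf18 (0.674), the sulfate transporter gene Slc13a1 (0.668), Kbtbd11 (0.650) and clusterin, Clu (0.646). Nr4a1 and Nr4a2 stood in 80th and 236th place for Nr4a3, with an r of 0.513 and 0.442. Of these genes Fgf18, singled out after its values were seen, also differed between the agents, at 2.41 ± 1.56 FPKM with YKL and 12.1 ± 4.06 FPKM with PTH (SD, n = 8 each). This was a log2 difference of -2.43 (SE 0.30, limma adjusted p = 1.2e-05). Dusp8 did not pass, at 1.58 ± 0.54 FPKM with YKL and 1.5 ± 0.38 FPKM with PTH (limma adjusted p = 0.96).

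Set among 49 nuclear receptors by mean FPKM, Nr4a1 was in 4th place with YKL, behind the bile acid receptor gene Nr1h4 (88.1 FPKM), 3rd with PTH, behind the vitamin D receptor gene Vdr (85.4 FPKM), and 36th with vehicle. Nr4a2 was in 24th, 23rd and 41st place in YKL, PTH and vehicle kidneys, and Nr4a3 in 34th place with YKL, 20th with PTH and 44th with vehicle. There were 46 others, 38 of them tested. With YKL 3 of the 38 rose and 2 fell, beside 6.26% of all genes tested called upward and 11.5% downward. With PTH 3 rose and 6 fell, beside 6.00% and 11.1%. The log2 fold changes of the 38 spanned -0.58 to 0.52 with YKL and -0.85 to 0.81 with PTH. Their medians were 0.06 and -0.04, beside -0.05 over all genes tested in each comparison. Nr1d1, the clock repressor REV-ERB alpha, fell with both agents, to 38.8 ± 4.8 FPKM with YKL and 29.6 ± 5.4 FPKM with PTH, against 52.7 ± 5.1 FPKM with vehicle (SD, n = 8 each). Ppard, a fatty acid receptor gene, rose with both, by 0.41 on the log2 scale with each agent (limma adjusted p = 1.6e-03 with YKL and 8.7e-04 with PTH).

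The direct comparison of the agents had 6 higher and 1 lower of 38 with YKL, beside 2.84% and 3.58% of all genes tested. Among them Nr1h4 was higher with YKL than with PTH by 0.47 on the log2 scale (limma adjusted p = 2.2e-04). Against vehicle, Nr1h4 had a log2 fold change of -0.63 with PTH (limma adjusted p = 1.2e-06). The xenobiotic receptor gene Nr1i2 had one of -0.74 with PTH against vehicle (limma adjusted p = 2.3e-04). Ppara, a regulator of fatty acid oxidation, had one of -0.47 with PTH against vehicle (limma adjusted p = 4.6e-04). With YKL against vehicle, the oestrogen receptor gene Esr2 rose by 0.47 (limma adjusted p = 0.011) and the retinoic acid receptor gene Rarg fell by 0.58 (limma adjusted p = 0.012). Nr1h2, an oxysterol receptor gene, rose by 0.25 with YKL against vehicle (limma adjusted p = 0.032). Esr2 and Nr1h2 were not called between the agents (limma adjusted p = 0.48 and 0.997). Without any 1 of YKL replicates 4, 5 and 6, 4 of the 38 were called in the direct comparison.

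A list of 27 genes, of which 26 were tested, covered the route from the PTH receptor to CREB and factors beside or beyond it. It also held SIK and CRTC genes, histone deacetylase genes, Mef2 genes, Srf, Elk1 and the cAMP-responsive Crem. Its counts are therefore not a response of the route alone. With YKL 5 rose and 0 fell, beside 6.26% of all genes tested called upward and 11.5% downward. With PTH 7 rose and 0 fell, beside 6.00% and 11.1%. In the direct comparison 0 were higher and 5 lower with YKL, beside 2.84% and 3.58%. Crem, a cAMP-responsive factor with repressor forms, was at 13.6 ± 3.71 FPKM with YKL, 56.9 ± 7.29 FPKM with PTH and 7.58 ± 1.23 FPKM with vehicle, and its log2 fold change between the agents of -2.10 (limma adjusted p = 3.2e-11) was near the size of that of Nr4a3. Sik1, a SIK gene that is itself cAMP-inducible, was at 63.3 ± 16.6 FPKM with YKL and 60.1 ± 23.6 FPKM with PTH, against 23.6 ± 1.24 FPKM with vehicle, with a log2 difference between the agents of 0.11 that did not pass (limma adjusted p = 0.85). Mef2d and Srf, transcription factors that act on early genes, rose with both agents, by 0.53 and 0.59 with YKL and by 1.01 and 0.85 with PTH on the log2 scale. Sik2 rose by 0.83 with PTH (limma adjusted p = 1.2e-03), and Prkaca, a catalytic subunit of protein kinase A, rose by 0.33 with YKL (limma adjusted p = 3.5e-03). The PTH receptor gene Pth1r was at 134 ± 8.79 FPKM with PTH and 146 ± 10.9 FPKM with vehicle (limma adjusted p = 0.14).

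Genes known as NR4A targets in other tissues were read from a list of 17, of which 14 were in the table and 9 tested. With YKL 2 were higher and 0 lower, beside 6.26% of all genes tested called upward, and with PTH 3 were higher and 0 lower, beside 6.00%. Between the agents 0 were higher and 2 lower with YKL, beside 3.58% called downward. The median log2 fold change of the 9 was -0.03 with YKL and 0.02 with PTH, beside -0.05 over all genes tested in each comparison. G6pc, which encodes glucose-6-phosphatase and is an NR4A target in mouse liver, was at 277 ± 49.5 FPKM with YKL, 554 ± 89.6 FPKM with PTH and 212 ± 40.9 FPKM with vehicle. Its log2 fold change was 0.39 with YKL (limma adjusted p = 0.033), 1.39 with PTH (limma adjusted p = 1.1e-08) and -1.0 between the agents (limma adjusted p = 1.3e-05). Ddc, which encodes the decarboxylase that makes dopamine, rose by 0.21 with YKL (limma adjusted p = 0.041) and by 0.26 with PTH (limma adjusted p = 0.014). The gluconeogenic Fbp1 and Fbp2, muscle enolase Eno3 and osteopontin Spp1 had log2 fold changes of -0.23 to 0.06 over both agents and did not pass.

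The genes next to the members were read from the same model. Nr4a1 (gene 15370) lies on chromosome 15 at 101253902 to 101274795, Nr4a2 (gene 18227) on chromosome 2 at 57106830 to 57124003 and Nr4a3 (gene 18124) on chromosome 4 at 48045078 to 48086447, on GRCm38. Of the nearest 2 genes on each side that passed the filter, none was called in any of the 3 comparisons. Grasp, 21.1 kb from Nr4a1, came nearest, at 11.6 FPKM with YKL and 8.65 FPKM with vehicle (log2 fold change 0.42, limma adjusted p = 0.052). Atg101, 9.5 kb on the other side of Nr4a1, had log2 fold changes of -0.06 with YKL and -0.004 with PTH. BB557941, an RNA gene 3.5 kb from Nr4a2, did not exceed a mean of 0.02 FPKM in any group, and Stx17, 38.5 kb from Nr4a3, had -0.16 with YKL and -0.13 with PTH.

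Markers of tissues that could come along with a kidney were summed in each library. Adrenal markers, of which 6 of 10 were in the table, summed to 1.42 to 2.96 FPKM with YKL, 1.35 to 2.78 FPKM with PTH and 2.03 to 2.75 FPKM with vehicle, and the defining Cyp11b1 was at 0 or near it throughout. Urothelial markers ran from 1.96 to 39.6 FPKM with YKL, 1.63 to 65.8 FPKM with PTH and 2.83 to 35.4 FPKM with vehicle, and 0 of 6 were called in any comparison. Fat markers reached 9.18 FPKM with YKL, 17.5 FPKM with PTH and 11.4 FPKM with vehicle, and 0 of the 2 tested were called. Leukocyte markers had 3 of 5 lower with YKL against vehicle, beside 11.5% of all genes tested called downward. With PTH 0 of 5 were called, beside 17.1% of all genes tested.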

How the data were processed

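Kidney RNA was isolated with Trizol and read on a BGISEQ500 instrument. A single table of FPKM, which corrects for transcript length and library total, was deposited by the authors. Tools listed in the submitters' processing notes are STAR 2.7.2b, DESeq2 and RSEM 1.3.0, with builds mm10 and GRCm38. The annotation is not given in the sources used here. One further value column (1 in all) that equals a named library was left out. Changes in abundant genes can shift all other FPKM values, and low values keep few fragments, so that folds of low genes depend on the pseudocount.

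Samples were grouped by labelled treatment. One model over 24 libraries and 3 groups was fitted to log2(FPKM + 0.1) in limma 3.58.1 (R 4.3.3) with a variance trend, for 13991 genes averaging 0.5 FPKM or more, and p-values were adjusted by Benjamini-Hochberg over all of them, with calls at an adjusted p below 0.05. The log2 ratios of members within libraries were compared by exact permutation and their correlations within groups by exact pairing (40320 pairings), each adjusted over 9 tests. The model was tested on simulated data. Other steps used Python 3.11.15, numpy 2.4.6, pandas 2.3.3, scipy 1.17.1 and matplotlib 3.10.9. Depth was estimated because the table holds no counts, and at the depth that gave the most near-whole values, 77.0% to 86.2% of low values in each library lay within 0.2 of a whole fragment, where evenly spread values would give about 40.0%. RSEM can also assign parts of fragments.

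The members and the gene lists were chosen with earlier results of these data known. Besides the members, the text names up to 5 genes with the smallest adjusted p per list and agent, the 5 genes most like each member, and the nearest 2 neighbours on each side, not all of them. Some genes that are counted in the lists are not reported here. Alternatives covered the pseudocount, filter, scaling, replicate block, a fit over 2 groups and leaving out each library.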

Additional observations from a re-analysis of the deposited data

Results flagged for a closer look

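In 18 sets of 8 values (levels and ratios of the members in each group), 4 had a library set apart from the rest by more than Dixon's 95% criterion. That criterion assumes normally distributed values, while levels were taken here as FPKM without logs, and flags can depend on that scale. The ratios also reuse the levels, so the number of flags cannot be set against chance. Nr4a3 was at 4.38 FPKM in YKL replicate 7, against 1.27 to 2.25 FPKM in the other 7. It was at 21.6 FPKM in PTH replicate 6, against 6.78 to 13.5 FPKM in the others, in the library that also had the highest Nr4a1 and Nr4a2 of its group. In vehicle replicate 7 it was at 0.52 FPKM, against 0 to 0.16 FPKM in the others. The log2 ratio of Nr4a2 to Nr4a1 was -2.04 in PTH replicate 8, against -3.19 to -2.77 in the others, and that library had the lowest Nr4a1 of its group, 27.2 FPKM. The Nr4a3 log2 difference of YKL against PTH stayed between -2.71 and -2.38 with any 1 library left out.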

How the results depend on the processing

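The members' log2 fold changes kept their direction and call in 278 of 279 alternative fits, and the exception was the Nr4a2 difference between YKL and PTH, which was not called and ran from -0.366 to 0.014 with 1 library left out, above 0 only without YKL replicate 1. Over the alternatives the Nr4a3 difference between the agents was -2.71 to -2.07 (limma adjusted p of up to 0.015). A fit over the 2 groups compared called 519 genes between the agents, where the model over 3 groups called 898, and the cause was not tested. Median-ratio scaling moved the share of higher calls, to 50.3% of the calls with YKL (1164 higher and 1151 lower, against 35.3%) and 49.9% with PTH (1097 and 1102, against 35.0%), and changed the member fold changes by less than 0.1. Between the agents, 4 to 9 other nuclear receptors were called with any 1 library left out. Leaving out 1 library gave 0.20 to 0.38 for the difference in the Nr4a2 to Nr4a1 ratio between the agents, -0.136 to 0.59 for the r of Nr4a1 with Nr4a3 in PTH libraries, 0.366 to 0.871 for Nr4a2 with Nr4a3 and 0.741 to 0.966 for Nr4a1 with Nr4a2. A pseudocount of 0.01 FPKM gave 2.03 with PTH (exact permutation adjusted p = 0.020) and -0.082 with YKL for the ratio of Nr4a3 to Nr4a1 against vehicle, and 1.22 with YKL for Nr4a3 to Nr4a2. A pseudocount of 1 FPKM gave -1.49 with PTH for the first ratio and -1.14 with YKL for the second (exact permutation adjusted p = 8.0e-04). By construction these follow the vehicle values near 0.

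Same-numbered libraries did not in general deviate together (median r of -0.01, -0.03 and 0.03 for the 3 pairs of groups, at most 0.202). The labels give no pairing beyond the number, and these values cannot show that nothing else was shared. With the replicate block, 2265 genes were called with YKL, 2203 with PTH and 760 between the agents, and the member calls were the same. Paired by number, the difference of 0.26 in the Nr4a2 to Nr4a1 ratio between the agents had an exact sign-flip adjusted p = 0.030. The labels do not say that equal numbers belong together, so no conclusion is drawn from that pairing. The unpaired test did not pass (exact permutation adjusted p = 0.17).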
